A study of Caenorhabditis elegans with 3 samples.

Results

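The 10 genes described here encode components of the synMuv class B machinery of Caenorhabditis elegans: lin-35, efl-1, dpl-1, lin-9, lin-37, lin-52 and lin-54 of the DREAM complex, and the heterochromatin genes hpl-2, lin-61 and lin-13. They are a list of 10 named genes out of 19973 nuclear protein-coding genes. A peak was counted for a gene when its summit lay in the gene body or within 2000 bp of any of its annotated transcript starts (Ensembl release 115, WBcel235, the same assembly as ce11). The data are chromatin immunoprecipitation followed by sequencing (ChIP-seq) of EGL-27, a relative of the vertebrate MTA subunits of the NuRD complex, in 3 libraries that form 1 group and are called biological replicates 1, 2 and 4. All 3 came from whole L4 larvae, labelled as mixed sex, of strain OP177 with the genotype unc-119(ed3) III; wgIs177, a stable transgenic line whose EGL-27 carries GFP-FLAG at its C-terminus. The labels give egl-27 as the antibody target and the age as unknown, and they name no second condition. Read depth was not among the values used here, and a possible control experiment was not analysed here.

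Synthetic multivulva (synMuv) genes act in redundant classes to keep epidermal cells of the larva from taking on vulval fates. In the DREAM complex the pocket protein LIN-35, a relative of the retinoblastoma protein, joins the E2F and DP subunits EFL-1 and DPL-1 to the MuvB core, and the complex represses cell cycle genes and, in the soma, germline genes. HPL-2 is a relative of heterochromatin protein HP1, LIN-61 has MBT repeats that bind methylated histone H3, and LIN-13 is a zinc finger protein known to associate with both. NuRD subunits also act in the class B pathway.

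None of the 10 genes had a peak in the reproducible list (against 0.566% of all protein-coding genes), which the authors drew from the other lists by the irreproducible discovery rate procedure. In the longer pooled list 8 of 10 had one, a share near the 77.3% of all protein-coding genes. The strongest pooled peaks lay upstream of lin-54, efl-1, lin-35, lin-13 and lin-37, with deposited signals of 17.1, 12.0, 11.4, 10.4 and 9.22. The lowest signal in the reproducible list was 18.7, and the median of the pooled list was 5.25. The signal is the authors' value for each peak. No source used here states its scale, so it ranks peaks within a list and was not compared between the libraries or between a library and the pooled list. The 102 reproducible peaks stand in the pooled list with the same positions and the same signals, as its ranks 1 to 102, so 18.7 is also a pooled-list value. By their deposited names the pooled and single-library lists hold background beside peaks, and which of the entries below are background was not determined.

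The stretches below lie under the highest pooled peaks of efl-1, lin-54, lin-13 and lin-37 and are shown because these peaks carry the highest signals of the list outside the lin-35 promoter. Each runs 5′ to 3′ on the gene's own strand, 100 bp to each side of the summit, from RefSeq's WBcel235 genome, the assembly of ce11. The lin-54 stretch was shortened to leave out the 5' UTR of its neighbour rpl-12. Capitals mark the searched words on either strand, and no base of these stretches lay in more than 1 match. The 9 words are the GATA type (TGATAA or AGATAA, and also TGATAG or AGATAG), the repeat GAGAGA, the CHR part TTTGAA, the E2F type (TTTCCCGC or TTTCGCGC) and the E-box CACGTG.
efl-1 (chrV:16965756-16965956, minus strand): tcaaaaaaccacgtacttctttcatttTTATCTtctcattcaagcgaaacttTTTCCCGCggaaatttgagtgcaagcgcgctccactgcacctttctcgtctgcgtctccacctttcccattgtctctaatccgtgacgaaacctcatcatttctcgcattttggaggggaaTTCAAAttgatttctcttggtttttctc
lin-54 (chrIV:13240652-13240795, plus strand): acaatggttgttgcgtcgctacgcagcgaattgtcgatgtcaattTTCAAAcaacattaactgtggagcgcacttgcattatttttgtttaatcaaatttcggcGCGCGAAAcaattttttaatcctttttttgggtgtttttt
lin-13 (chrIII:7710183-7710383, minus strand): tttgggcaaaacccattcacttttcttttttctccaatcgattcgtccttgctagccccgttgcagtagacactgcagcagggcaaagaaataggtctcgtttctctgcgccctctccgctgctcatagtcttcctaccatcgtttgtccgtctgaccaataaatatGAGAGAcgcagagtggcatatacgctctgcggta
lin-37 (chrIII:7074044-7074244, minus strand): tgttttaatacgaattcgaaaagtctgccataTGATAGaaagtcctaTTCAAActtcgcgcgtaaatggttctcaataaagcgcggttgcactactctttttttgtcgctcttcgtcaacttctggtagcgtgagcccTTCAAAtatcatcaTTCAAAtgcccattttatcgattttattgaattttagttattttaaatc

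The word TTTCCCGC, of the type bound by E2F factors, began 229 bp upstream of the efl-1 start and 48 bp from the summit. Its relative TTTCGCGC lay on the other strand 288 bp upstream of lin-54, 61 bp from the summit, and TTTGAA, part of the CHR element that LIN-54 recognises, lay 2 bp from that summit. The lin-37 stretch held TTTGAA 3 times and TGATAG once, and the lin-13 stretch held GAGAGA once. A match is a string of letters and not a site shown to be bound.

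Over the 29 pooled summits of the 10 genes, windows of 201 bp held TTTGAA in 17 (58.6%, against 46.6% of all 30000 pooled windows). A GATA word, of the type bound by GATA zinc fingers such as that of EGL-27, was in 13 (44.8%, against 37.0%), with TGATAG in 6 (20.7%, against 7.88%), TGATAA in 5 (17.2%, against 18.8%), AGATAA in 3 (10.3%, against 11.5%) and AGATAG in 1 (3.45%, against 6.13%). GAGAGA was in 5 (17.2%, against 14.2%), an E2F-type word in 2 (6.90%, against 1.74%) and CACGTG in 1, at lin-35 (3.45%, against 3.90%). With 29 windows, 1 window is worth several percentage points, and no test was run on these words. The GC content of the 29 windows ran from 25.4% to 49.3% with a median of 37.8%, against a median of 35.8% in the pooled list.

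Counted list by list, the share of the 10 genes was near that of all genes in the pooled list. In each library it was higher. In the pooled list 8 of 10 had a summit (80%, 95% exact binomial interval 44.4 to 97.5%), against 77.3% of all protein-coding genes, so this count is close to the background. In replicate 1 it was 7 (lin-35, lin-9, lin-37, lin-52, lin-54, hpl-2 and lin-61), against 39.9% of all genes. In replicate 2 it was 8, the same genes as in the pooled list, against 49.9%, and in replicate 4 it was 6 (lin-35, efl-1, lin-9, lin-52, lin-54 and lin-13), against 28.7%. The intervals for replicates 1, 2 and 4 were 34.8 to 93.3%, 44.4 to 97.5% and 26.2 to 87.8%. A summit in the lists of 2 or more libraries was found for 8 of 10 (interval 44.4 to 97.5%), against 35.8%. In all 3 libraries one was found for lin-35, lin-9, lin-52 and lin-54 (40%, interval 12.2 to 73.8%), against 10.8%. The reproducible list had 0 of 10 (interval 0 to 30.8%), against 0.566%. In no list at all was dpl-1 (1 of 10, against 15.6%). Replicate 2, the longest library list, carries part of the first count: replicates 1 and 4 both had a summit at 4 genes (lin-35, lin-9, lin-52 and lin-54), against 15.2% of all genes. Intervals cover counting error over 10 genes, and since the genes were chosen with results of these data known and differ in length from the average gene, no test of the list was made. The intervals treat the 10 genes as independent draws, which a chosen list is not. Whether an interval holds the share of all genes is therefore not a test either.

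**Figure D1:**
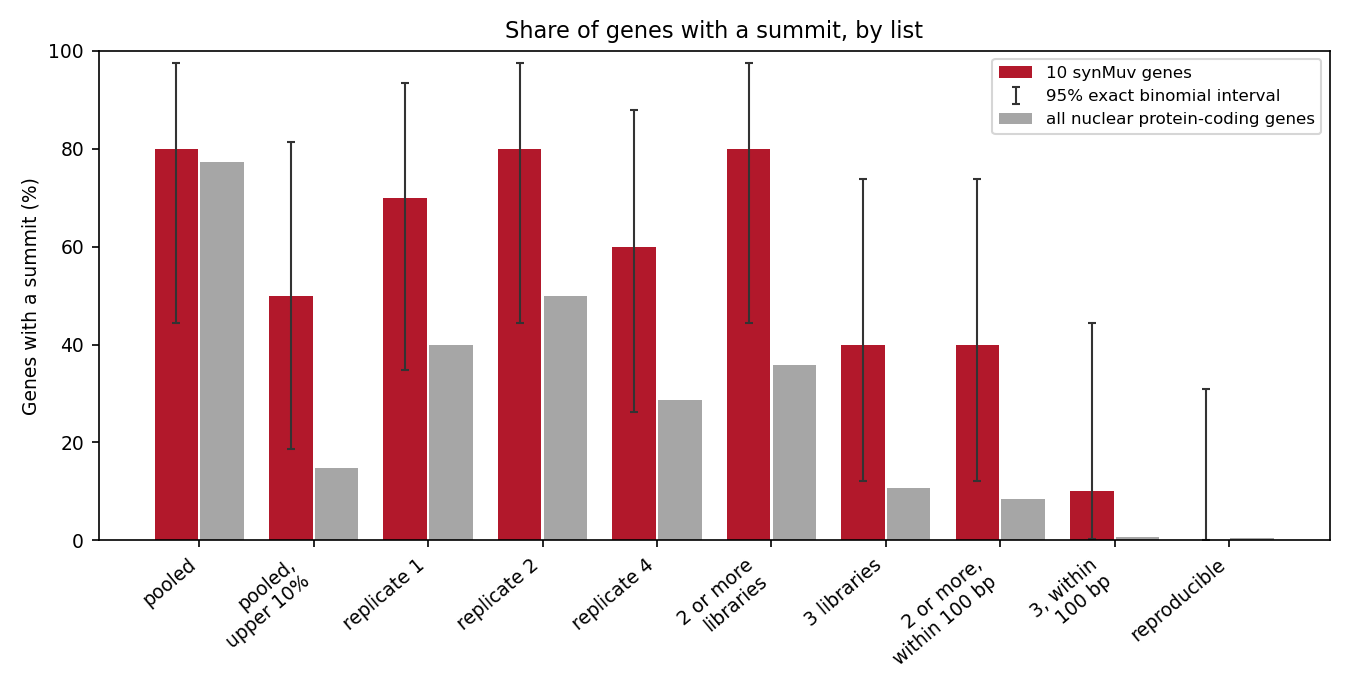
Share of genes with a summit in each list (percent, axis from 0), for the 10 synMuv genes (red, with 95% exact binomial intervals) and for all 19973 nuclear protein-coding genes (grey). The shares are alike in the pooled list (80% and 77.3%) and stand apart in the lists of 2 or more libraries (80% and 35.8%).

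Over all genes, the share with a summit was higher in longer windows. The windows of the 10 genes ran from 4001 to 11154 bp with a median of 4996 bp, against a median of 4182 bp over all genes. All genes were divided at the quartiles of window length. In the longest class (5764 bp or more) 59.4% of genes had a summit in 2 or more libraries, and all 4 genes of the list there did (lin-35, efl-1, lin-9 and lin-13). In the next class (4183 to 5763 bp) the share was 34.3%, and 2 of 4 had one (lin-54 and lin-61, but not dpl-1 and hpl-2). In the shorter classes the shares were 27.5% and 24.2%, and lin-52 and lin-37 each had one. The 10 genes held a median of 3 pooled summits each, or 0.502 per kb of window, against medians of 1 summit and 0.250 per kb over all genes. In the longest class, which holds 4 of the 10, the median over all genes was also 3 summits, and in each shorter class it was 1. Over their summed windows the 10 genes held 0.460 pooled summits per kb, against 0.299 per kb of the nuclear genome. The part of window length in the counts was not tested.

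Summits counted for the same gene often lay apart. Of 43 library peaks at the 10 genes, 13 were in replicate 1, 20 in replicate 2 and 10 in replicate 4, and 35 overlapped a pooled peak. The share of all library peaks that overlap a pooled peak is not given here, so that count has no background. Summits of 2 or more libraries lay within 100 bp of each other at lin-35, efl-1, lin-52 and lin-54 (4 of 10, against 8.51% of all genes), and those of all 3 libraries did so at lin-54 (1 of 10, against 0.621%), a distance chosen after the values were seen. Only at efl-1 was the listed gene's start the nearest to these summits. The nearest start was that of vps-51 at lin-35, of ZK632.9 at lin-52 and of rpl-12 at lin-54. At lin-9 the closest summits of different libraries were 452 bp apart, at lin-37 385 bp, at lin-13 128 bp and at lin-61 2865 bp.

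**Figure D2:**
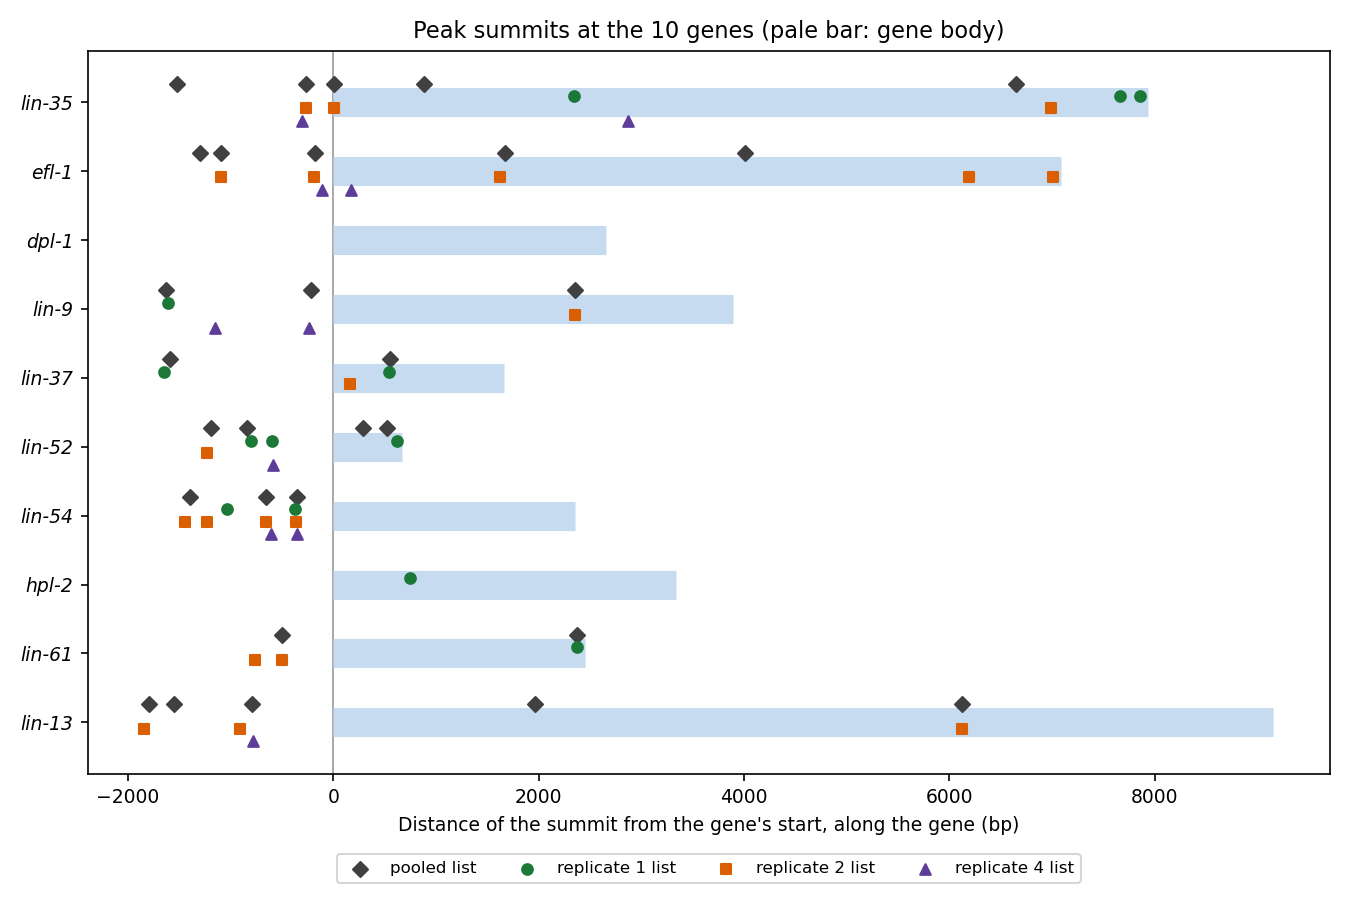
Peak summits at each gene, as distance in bp from the gene's outermost start along its strand, with the gene body as a pale bar. Diamonds are the pooled list, and circles, squares and triangles the lists of replicates 1, 2 and 4. At lin-54 all 3 libraries meet within 22 bp, whereas at lin-9 they mark different places. At lin-61 replicates 1 and 2 mark different places and replicate 4 has no summit.

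Seen from the pooled list, 11 of its 29 peaks at the 10 genes (37.9%) were overlapped by 1 bp or more in 2 or more libraries, against 14.8% of all pooled peaks. In all 3 libraries 3 were overlapped (10.3%, against 2.15%): 2 near lin-54 and 1 upstream of lin-52. With replicate 2 left out, replicates 1 and 4 both overlapped 3 of the 29, against 4.56%. Of the remaining pooled peaks, 4 had no overlapping peak in any library, at lin-35 (2), efl-1 and lin-13 (13.8%, against 35.7% of all pooled peaks). Neighbouring pooled peaks can share 1 library peak, as both promoter peaks of lin-35 do in replicate 4 and the 2 peaks near lin-54 do in replicate 1, so these counts are not independent. The pooled list was also made from the same 3 alignments as the library lists. Overlap in 2 or more libraries was more frequent at high signal, at 56.7% in the upper 10% of the pooled list. Of the 29 peaks, 21 lay above the pooled median. The part of signal in these counts was not tested.

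**Figure D3:**
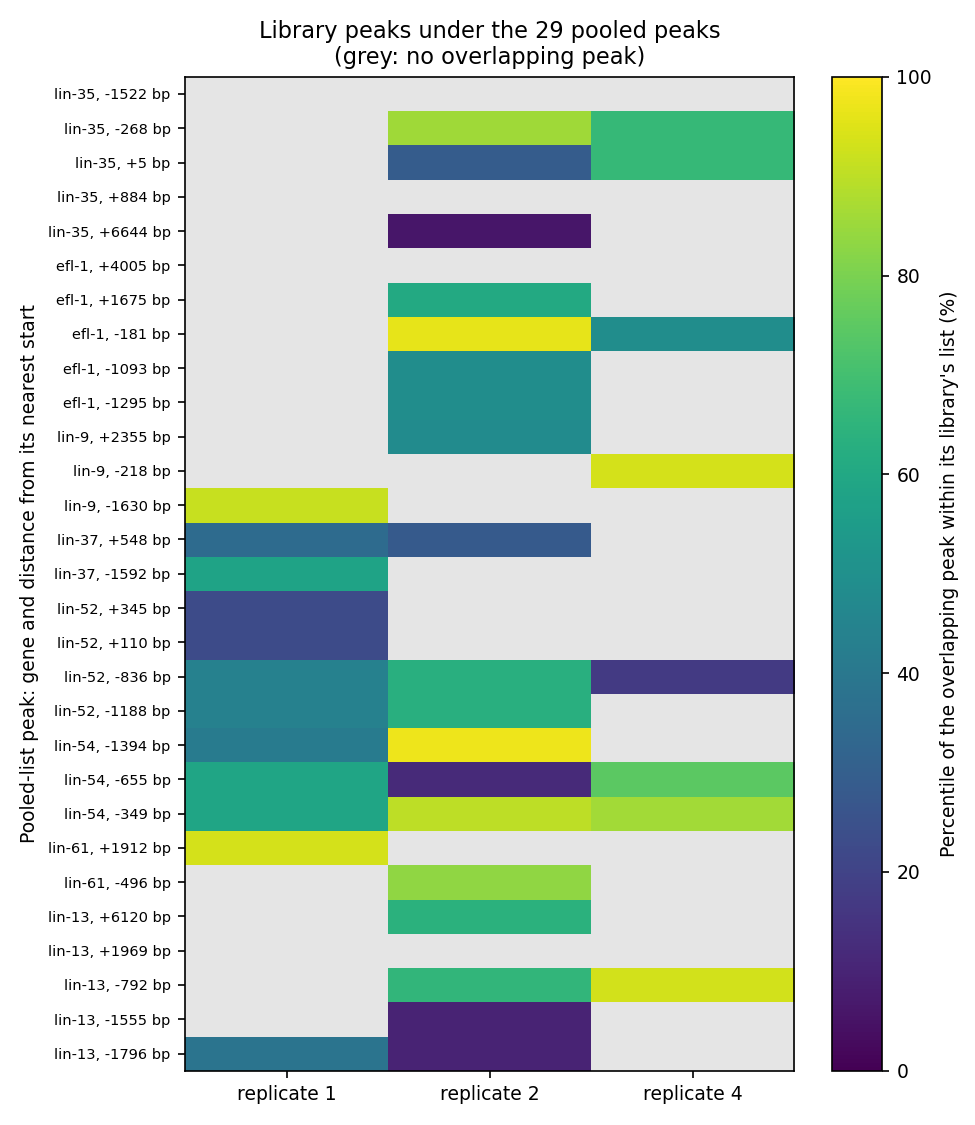
Library peaks that overlap each of the 29 pooled peaks, by gene and distance from its nearest start. Colour is the percentile of the overlapping peak within its own library's list (100% is the highest signal) and grey means no overlapping peak; the row at 349 bp upstream of lin-54 is filled in all 3 libraries.

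In the upper 10% of the pooled list, a limit chosen after the values were seen, lay a peak of 5 of the 10 genes (lin-35, efl-1, lin-37, lin-54 and lin-13), against 14.8% of all protein-coding genes. The 10 genes held a median of 3 pooled summits each, against 1 over all genes. Counted by peaks, the share was 17.2% of the 29, against 10% of the pooled list by definition. The peaks of lin-35, lin-37 and lin-54 had the start of another gene nearest. Of these 5 peaks, all but that of lin-37 had a counterpart in several libraries (4 of 5, against 56.7% of all pooled peaks in the upper 10%). The median signal of the 29 peaks was 6.29, against 5.25 in the pooled list, and 21 of the 29 lay above that median.

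**Figure D4:**
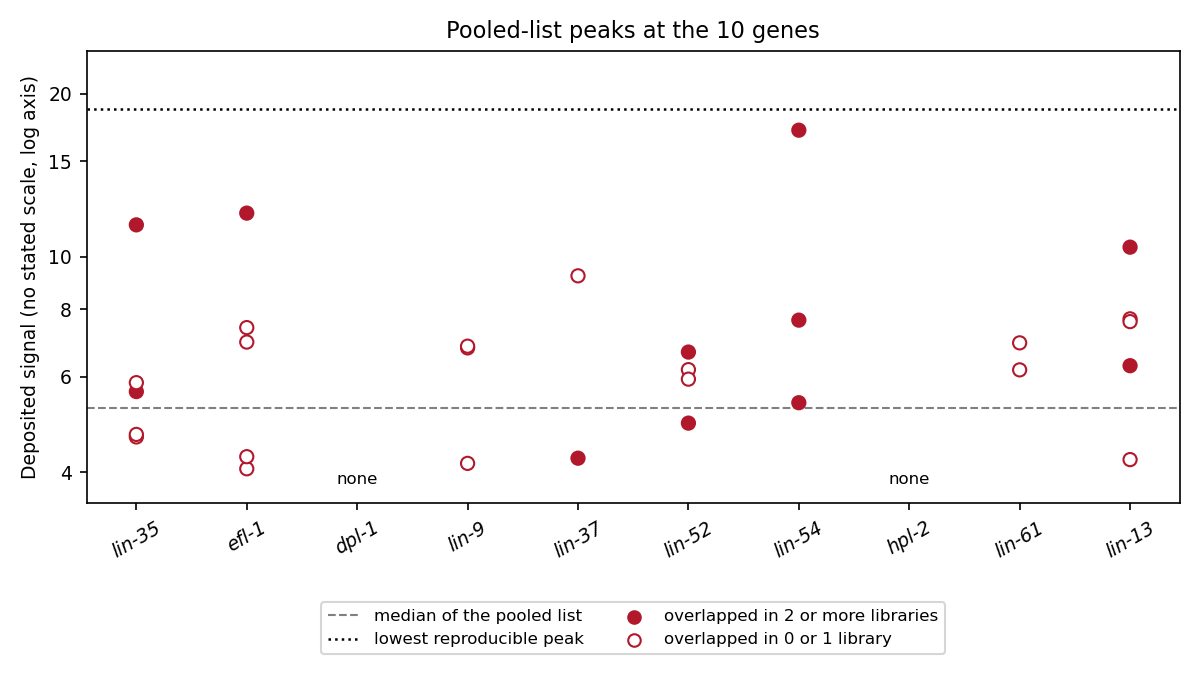
Deposited signal (log axis, no stated scale) of the 29 pooled-list peaks at the 10 genes. Filled points were overlapped in 2 or more libraries; the peak of lin-54 at 17.1 lies nearest to the lowest reproducible peak (dotted line, 18.7), and dpl-1 and hpl-2 have no point.

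The retinoblastoma relative lin-35 (chromosome I, 5807709 to 5815637) had 5 pooled peaks. The highest, at 5807226 to 5807655, lay 268 bp upstream with a signal of 11.4 (rank 809) and was 150 bp from the start of vps-51, a vesicle tethering gene. Replicate 2 had a summit at the same place (signal 5.84, rank 1929) and replicate 4 one 309 bp upstream (signal 3.15, rank 2203). Replicate 1 had no peak there. Its 3 summits lay in an intron 2340 bp from the start (signal 2.82) and in the 3' UTR (signals 3.17 and 2.96), and none of them overlapped a pooled peak. The intron summit was 47 bp from the start of C32F10.4, and hmg-3 had the start nearest to the 3' UTR summits. A further pooled peak lay 5 bp from the lin-35 start, in the 5' UTR (signal 5.63), with a replicate 2 summit 9 bp from the start (signal 3.67). The others lay in an intron (884 bp, signal 4.70), a coding exon (6644 bp, 5.85, nearest to the start of hmg-3) and upstream in vps-51 (1522 bp, 4.64). Replicate 4 also had an intron summit 2872 bp from the start (signal 3.78), 579 bp from the start of C32F10.4.

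The E2F subunit gene efl-1 had its highest peak close to its own start. The peak (chrV:16965641-16966070) lay 181 bp upstream with a pooled signal of 12.0 (rank 639). Replicate 2 had a summit 187 bp upstream (signal 7.92, rank 502) and replicate 4 one 106 bp upstream (signal 2.76, rank 3374), while replicate 1 had no summit in the efl-1 window. Pooled peaks of lower signal lay in introns, 1675 bp (6.95) and 4005 bp (4.06) from the start, and near fbxa-90, an F-box gene, 1093 bp (7.39) and 1295 bp (4.27) upstream. Further summits lay 176 bp from the start in replicate 4 (signal 2.29), and 6187 bp (3.16) and 7012 bp (3.71) from it in replicate 2. The start nearest to these replicate 2 summits was that of clec-239.

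The partner gene dpl-1, on chromosome II (9169910 to 9172565), had no summit in any of the lists. The nearest pooled summit lay 3616 bp outside its window, towards sec-5 (signal 7.17). In replicate 2 a summit lay 16 bp outside the window, 2016 bp upstream (signal 4.28, rank 6216), so its absence from that list rests on the 2000 bp limit.

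The MuvB core gene lin-54 encodes the subunit that contacts DNA and had the highest signal of the list. Its peak (chrIV:13240480-13240909) ranked 144 of 30000 in the pooled list, where the reproducible list ends at rank 102. The summit lay 349 bp upstream of lin-54 but 44 bp from the start of rpl-12, a gene for a large-subunit ribosomal protein on the opposite strand, so the pair share this region. Replicate 1 had a summit 371 bp upstream (signal 2.99, rank 3974 of 9666), replicate 2 at 364 bp (signal 6.28, rank 1365 of 13686) and replicate 4 at 349 bp (signal 4.08, rank 922 of 6636). The summits of the 3 libraries thus spanned 22 bp. Further pooled peaks of lin-54 lay 655 bp (signal 5.37) and 1394 bp (signal 7.63) upstream, within the rpl-12 gene, and none lay in the lin-54 gene body. Replicate 2 ranked a summit 1445 bp upstream, 185 bp from the start of tag-115, higher (signal 8.48, rank 354) than its summit at the promoter peak.

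At the other MuvB genes the highest pooled signals were below that of lin-54, and summits of all 3 libraries nowhere lay within 100 bp. At lin-9, a core subunit gene of 3895 bp, the pooled peaks had signals of 6.78 (coding exon, 2355 bp from the start), 4.15 (218 bp upstream) and 6.83 (1630 bp upstream). Each was overlapped in a different library: the exon peak in replicate 2 (signal 4.04), the promoter peak in replicate 4 (signal 4.95, rank 430) and the distal peak in replicate 1 (signal 4.42, rank 831). The distal peak lay in a coding exon of unc-32, a proton pump subunit gene, 144 bp from that gene's start. A summit of replicate 4, 1153 bp upstream (signal 3.41), overlapped no pooled peak.

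At lin-52, the shortest gene of the list (668 bp), pooled signals ran from 4.93 to 6.66 over 4 peaks. The peak 836 bp upstream (chrIII:9825371-9825800, signal 6.66) was overlapped in all 3 libraries, yet its nearest start was that of ZK632.9, 154 bp away. The overlapping summits of the libraries were themselves apart, at 797 bp in replicate 1, 1230 bp in replicate 2 and 588 bp in replicate 4. A second summit of replicate 1, 595 bp upstream, lay 7 bp from that of replicate 4.

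At lin-37 an intron peak 548 bp from the start had a pooled signal of 4.24 and was overlapped in replicates 1 and 2, and the peak shown above, 1592 bp upstream and 293 bp from the start of ZK418.5 (signal 9.22, rank 2160), was overlapped in replicate 1 (signal 2.93). Replicate 4 had no summit in the lin-37 window.

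Among the heterochromatin genes lin-13 had the highest signal. Its window is the longest of the list (11154 bp), and it held 5 pooled peaks. That at chrIII:7710068-7710497 lay 792 bp upstream, with lin-13 as the nearest protein-coding start and a signal of 10.4 (rank 1242). Replicate 2 had a summit 913 bp upstream (signal 4.68, rank 4690) and replicate 4 one 785 bp upstream (signal 4.92, rank 443). Replicate 1 had no summit in the window; its nearest lay 181 bp outside it, 2181 bp upstream (signal 2.56). A coding exon peak 6120 bp from the start had a pooled signal of 7.67 and was overlapped in replicate 2 (signal 4.61). The remaining pooled signals were 4.22 (coding exon, 1969 bp), 7.59 (1555 bp upstream) and 6.29 (1796 bp upstream). The first had no overlapping library peak, and C03B8.3 had the start nearest to both others. The peak 1555 bp upstream was overlapped in replicate 2. That 1796 bp upstream was overlapped in replicate 2 and by the replicate 1 peak whose summit lay outside the window. Among summits upstream of a listed gene, it had the pooled summit closest inside the 2000 bp limit. Among upstream library summits the closest inside that limit was also at lin-13, in replicate 2, 1840 bp upstream (signal 3.31).

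At lin-61 the pooled peaks lay at the borders with its neighbours. One was 496 bp upstream and 163 bp from the start of bub-1, a spindle checkpoint kinase gene (signal 6.93), and was overlapped in replicate 2 (signal 5.62). The other was in the 3' UTR, 215 bp from the start of adsl-1, an adenylosuccinate lyase gene (signal 6.18), and was overlapped in replicate 1 (signal 4.75, rank 606). A pooled peak of higher signal (10.8, rank 1046) had its summit 156 bp outside the window, on the adsl-1 side. Replicate 2 also had a summit in an intron of bub-1, 763 bp upstream of lin-61 (signal 3.84).

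The HP1 relative hpl-2 had no pooled peak, and its single summit was in an intron 738 bp from the start in replicate 1 (signal 3.97, rank 1356). The reproducible peak nearest to any of the 10 genes lay upstream of hpl-2, at chrIII:10759034-10759463, 3719 bp from its start. That peak (signal 31.7, rank 13) is nearest to the start of tasp-1, a threonine aspartase gene. Its counterparts ranked 5343 of 9666 in replicate 1 (signal 2.71), 23 of 13686 in replicate 2 (22.0) and 254 of 6636 in replicate 4 (5.61). For the other 9 genes the gap between the gene body and a reproducible summit ran from 58.4 kb (lin-52) to 1394 kb (efl-1).

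Where the summits fell was also compared with gene structure. Of the 29 pooled summits, 17 lay upstream of the listed gene, 6 in its coding exons, 4 in its introns, 1 in its 5' UTR and 1 in its 3' UTR. The listed gene's own start was the nearest protein-coding start for 13 of them, and 22 lay in the window of more than 1 protein-coding gene, so most cannot be given to the listed gene by distance alone. Within 500 bp of the listed gene's start lay 8. The same shares over all pooled peaks are not given here, so the counts in this paragraph have no background. Whether they differ from those at other genes was not tested.

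Other genes of the pathway were counted by the same rule, with lists that were drawn up with earlier results of these data known. Over all protein-coding genes 77.3% had a pooled peak and 35.8% had a summit in 2 or more libraries. Of the synMuv class A genes 4 of 4 had a pooled peak and 1 had a summit in 2 or more libraries. For 16 other class B and heterochromatin genes these counts were 15 and 8, and for 5 class C and Tip60 genes 5 and 4. For 9 synMuv suppressor and germline chromatin genes they were 9 and 6, for 16 cell cycle regulators 16 and 14, and for 7 vulval signalling genes 6 and 7. Median windows were 5392, 6363, 10957, 6496, 5691 and 11461 bp in the same order, all above the 4182 bp of all genes.

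By the rule for named genes, cec-4, which encodes a chromodomain protein that anchors heterochromatin at the nuclear periphery, had a pooled peak 1583 bp upstream (signal 11.9) that was overlapped in all 3 libraries. Of class C, trr-1 (signal 8.78) and ssl-1 (6.68) had summits in all 3 libraries, but their highest pooled peaks were overlapped in 1. The reproducible list held 1 of these genes, zfp-1, a PHD finger chromatin gene with an intron peak at signal 33.2. Among the cell cycle regulators fzr-1, an activator of the anaphase-promoting complex, had a signal of 17.4 at 1853 bp upstream and pcn-1, the PCNA gene, 13.4 at 272 bp upstream, both overlapped in all 3 libraries. The cyclin genes cyd-1 (15.6, 142 bp upstream) and cye-1 (13.0, intron) were overlapped in 2. The vulval genes lin-1, an ETS factor gene, and let-23, the EGF receptor gene, had highest signals of 12.3 and 6.98. Outside that rule and chosen after its value was seen, mep-1, a zinc finger gene of class B, had a peak 100 bp upstream at 17.2 (rank 141), overlapped in 2 libraries.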

How the data were processed

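ChIP-seq peak lists on build ce11 were used as the authors deposited them: 1 list for each of 3 libraries (9666, 13686 and 6636 peaks for replicates 1, 2 and 4), a pooled list of 30000 made from the 3 alignments and a control, and a reproducible list of 102, per the deposited README texts. The values are a signal per peak, deposited by the authors with no stated scale. The sources used here name no aligner, peak caller or irreproducible discovery rate threshold, and peak lists leave the depth of each library unknown. Lists on ce10 were not used here.

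Summits (1-based) were assigned in Python 3.11.15 with pandas 2.3.3 and numpy 2.4.6 to gene bodies and to 2000 bp on either side of each transcript start of Ensembl release 115 (WBcel235), over all 19973 nuclear protein-coding genes. No ce11 peak ended beyond its WBcel235 chromosome. Pairs of libraries shared 2, 5 and 11 identical summits, and each library entered as 1 replicate. Per the labels, each library came from a biosample of its own. Peaks were matched by an overlap of 1 bp or more, the nearest summit being taken where there were several. Binomial intervals are exact (Clopper-Pearson, scipy 1.17.1). The assignment was tested on simulated summits. The design has 1 group, so counts are given beside those over all genes and no test was made. The members and lists were chosen with earlier results of these data known. The named genes were all 10 members, neighbours whose start is nearer to a member's peak, and up to 4 genes of each other list with a reproducible peak or a summit in all 3 libraries, in order of signal. Alternatives covered distances, gene bodies, transcripts, list thresholds, the overlap rule and leaving out each replicate.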

Additional observations from a re-analysis of the deposited data

How the results depend on the processing

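The counts of genes with a pooled peak (8) and with summits in 2 or more libraries (8) were 8 to 9 and 6 to 9 under the planned changes of distance, gene body, transcripts, overlap, signal and equal list length, while the shares over all genes ran from 53.9% to 94.0% and from 16.5% to 65.1%. The count in all 3 libraries (4) was 2 within 500 bp or 1000 bp of a start (against 5.94% and 7.25% of all genes), 2 without gene bodies (7.82%) or in the upper 50% of each list (3.62%), and 7 within 5000 bp (27.5%). The 2 genes were lin-35 and lin-54, except without gene bodies, where they were lin-52 and lin-54. Within 5000 bp the reproducible count became 1, hpl-2, through the tasp-1 peak (1.10% of all genes). With alternatives chosen after seeing the data, 5 genes had a peak in the upper 10% of the pooled list, and 4 and 1 had summits of 2 or more and of 3 libraries within 100 bp.

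With 1 replicate left out, so that both others had to have a summit, 4 to 6 genes were counted; without replicate 2 they were lin-35, lin-9, lin-52 and lin-54 (4, against 15.2% of all genes), and 6 were counted without replicate 1 (18.3%) or replicate 4 (23.9%). The 11 pooled peaks overlapped in 2 or more libraries became 4 with summits within 100 bp (5.40% of pooled peaks) and 5 with 50% of the peak overlapped (9.84%), and 3 to 7 with 1 replicate left out, 3 of them without replicate 2 (4.56%) and 7 without replicate 1 (6.38%) or replicate 4 (8.12%). The cause was not tested, though both others having a peak is a narrower rule by construction. No paired analysis was possible because there is 1 group. Without read numbers, a missing peak cannot be told from a library of lower depth.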
